A study of Mus musculus with 9 samples.

Results

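Pulmonary surfactant genes and the genes of its storage organelle, the lamellar body, were followed in mouse lung organoids from smoke-exposed and clean-air mice. The 10 genes were Sftpa1, Sftpb, Sftpc, Sftpd, Napsa, Lamp3, Slc34a2, Abca3, Lgi3 and Lpcat1, taken by the symbol in the array annotation from the 22180 genes that the arrays name. All 10 were found, each through 1 transcript cluster, which is the array's unit for a gene. Affymetrix Mouse Gene 2.0 ST arrays were run on 9 organoid samples, 3 per group. CSD14 organoids came from male BALB/c mice chronically exposed to cigarette smoke (CS) and were harvested on culture day 14. CSD5 organoids came from CS mice and were harvested on culture day 5. ND14 organoids came from naïve mice kept in clean air and were harvested on culture day 14. All 3 groups were grown in Matrigel from cells of digested right lung tissue, with no cell sorting described, so cells of several lineages could enter the culture. Day 5 lies before the change from the proliferation medium to a differentiation medium with less serum, so CSD14 and CSD5 differ in medium as well as in day. CSD5 and ND14 differ in exposure, day and medium at once, and no naïve day 5 group was analysed here.

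Surfactant is a film of phospholipid and protein that lowers surface tension in the alveoli. Alveolar type 2 (AT2) cells make it, pack it into lamellar bodies and secrete it, and loss of Sftpb or Abca3 function causes respiratory failure at birth. The small hydrophobic proteins encoded by Sftpb and Sftpc are cut from larger precursors on the way to the lamellar body, while the products of Sftpa1 and Sftpd are soluble lectins of innate defence. Sftpc is the classical AT2 gene, whereas Sftpa1, Sftpb and Sftpd are also made by secretory cells of the airway.

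The deposited values are log2 signals, on which 1 unit is a doubling. The groups were compared with limma in 1 model of the 9 arrays, p-values were adjusted by Benjamini-Hochberg across 34472 clusters, and the verbs rose and fell are kept for an adjusted p below 0.05. Counts at an unadjusted p under 0.05 alone are descriptive, since the share of all clusters under that rule was not counted. Errors are standard errors (SE) of the fit unless given as SD. A background level was set on each array at the 95th percentile of 1108 clusters for olfactory receptors, genes that lung is not expected to express, and lay at 2.83 to 3.15. Array medians were 2.79 to 3.04. General epithelial markers such as Epcam and Krt8 averaged 7.93 to 8.89 across the arrays, and endothelial markers averaged 2.52 to 3.01. Of 24 measured AT2 markers other than the 10 genes, 23 were above background on at least 1 array. Sfta2 was above it on 0 of 9, and Hc, Acoxl and Mlc1 on 1 of 9 each. CSD5 replicate 1 stood apart from its group. Over all clusters it correlated at a mean of 0.963 with CSD14, 0.973 with its own group and 0.991 with ND14. Of the 10 genes, 9 had a signal on it nearer to the ND14 mean than to the mean of CSD5 replicates 2 and 3, and Sftpc was the other one. The CSD5 comparisons are therefore given with and without that array. It was singled out after its values were seen, and the fit without it keeps only CSD5 replicates 2 and 3. It lay under both for all 10 genes, so leaving it out raises their CSD5 means. The adjusted p-values of that limma fit can be too small, and its calls are descriptive. The 3 comparisons share arrays with each other and are not independent.

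Promoter sequences were available for 6 of the 10 genes, Slc34a2, Sftpb, Lpcat1, Sftpa1, Lamp3 and Abca3, from RefSeq on GRCm38.p6. The 250 bases before the transcription start are printed for 3 genes, those of the 6 that held a match to either core marked here. Sftpb had a signal lower in ND14 than in both CS groups. Sftpa1 and Lamp3 had their highest group mean in CSD5. Capitals mark matches, on either strand, to a core of the NKX2-1 site (TCAAG) or of the FOXA site (TGTTTNC), 2 factors known to act on surfactant genes. The Sftpb stretch is chr6:72304360-72304609 on the plus strand, that of Sftpa1 is chr14:41131538-41131787 on the plus strand, and that of Lamp3 is chr16:19706366-19706615 on the minus strand.
Sftpb: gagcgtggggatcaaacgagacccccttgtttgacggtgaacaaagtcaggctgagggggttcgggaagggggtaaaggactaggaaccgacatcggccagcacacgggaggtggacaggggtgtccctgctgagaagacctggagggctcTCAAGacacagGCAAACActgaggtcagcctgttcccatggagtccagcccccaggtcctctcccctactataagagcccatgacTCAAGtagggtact
Sftpa1: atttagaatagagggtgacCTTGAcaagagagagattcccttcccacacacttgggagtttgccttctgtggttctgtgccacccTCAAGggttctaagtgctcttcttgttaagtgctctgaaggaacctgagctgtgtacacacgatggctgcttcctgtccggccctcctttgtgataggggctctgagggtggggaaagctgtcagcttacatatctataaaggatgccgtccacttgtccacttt
Lamp3: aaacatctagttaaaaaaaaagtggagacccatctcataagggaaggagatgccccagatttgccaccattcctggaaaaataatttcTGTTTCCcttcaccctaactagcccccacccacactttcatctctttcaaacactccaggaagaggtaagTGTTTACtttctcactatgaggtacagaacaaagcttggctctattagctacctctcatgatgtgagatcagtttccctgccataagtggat
Sftpb held TCAAG at -99 and -14 from the start and the FOXA core, on the reverse strand, at -88. Sftpa1 held the NKX2-1 core at -231, on the reverse strand, and at -165. Lamp3 held the FOXA core at -162 and -92. The NKX2-1 core was found in 2 of the 6 promoters, against 35.9% of all 32851 promoters of that length, and the FOXA core in 2 of 6, against 17.8%. The C/EBP core, TTGCNNAA, was found in 1 of 6, as the palindrome TTGCGCAA at -48 of Slc34a2, against 9.56% of all promoters. Abca3 and Lpcat1 held 0 matches to these letters. The matches are a description of the letters and name no bound site.

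Sftpc, the AT2 surfactant protein gene, had the largest fold changes of the 10 in both comparisons with CSD5, while in CSD14 against ND14 Sftpd and Sftpb moved further. Its signal (transcript cluster 17308388) was 4.55, 4.25 and 3.95 on the CSD14 arrays, 9.49, 11.29 and 11.49 on the CSD5 arrays and 5.74, 5.79 and 5.79 on the ND14 arrays. The 3 groups did not overlap, with CSD5 at the top, ND14 in the middle and CSD14 at the bottom, and all 9 arrays were above background. The SD was 0.300 in CSD14, 1.10 in CSD5 and 0.0289 in ND14, so that the step between CSD5 and either other group was several times the spread and the step between CSD14 and ND14 was smaller. In organoids, as in any bulk sample, fewer cells that express a gene and less RNA of it per cell cannot be told apart.

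Napsa encodes napsin A, an aspartic protease that takes part in trimming the precursor encoded by Sftpb. Its signal (cluster 17477508) was 2.80, 2.64 and 2.54 in CSD14, 4.01, 5.91 and 5.90 in CSD5 and 3.24 on each of the 3 ND14 arrays. The order of the groups was that of Sftpc and again none overlapped, but all 3 CSD14 values were at or under background, so the CSD14 level is an upper bound. The ND14 values stood just above background, and their identity to the second decimal gives no estimate of spread.

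**Figure D1:**
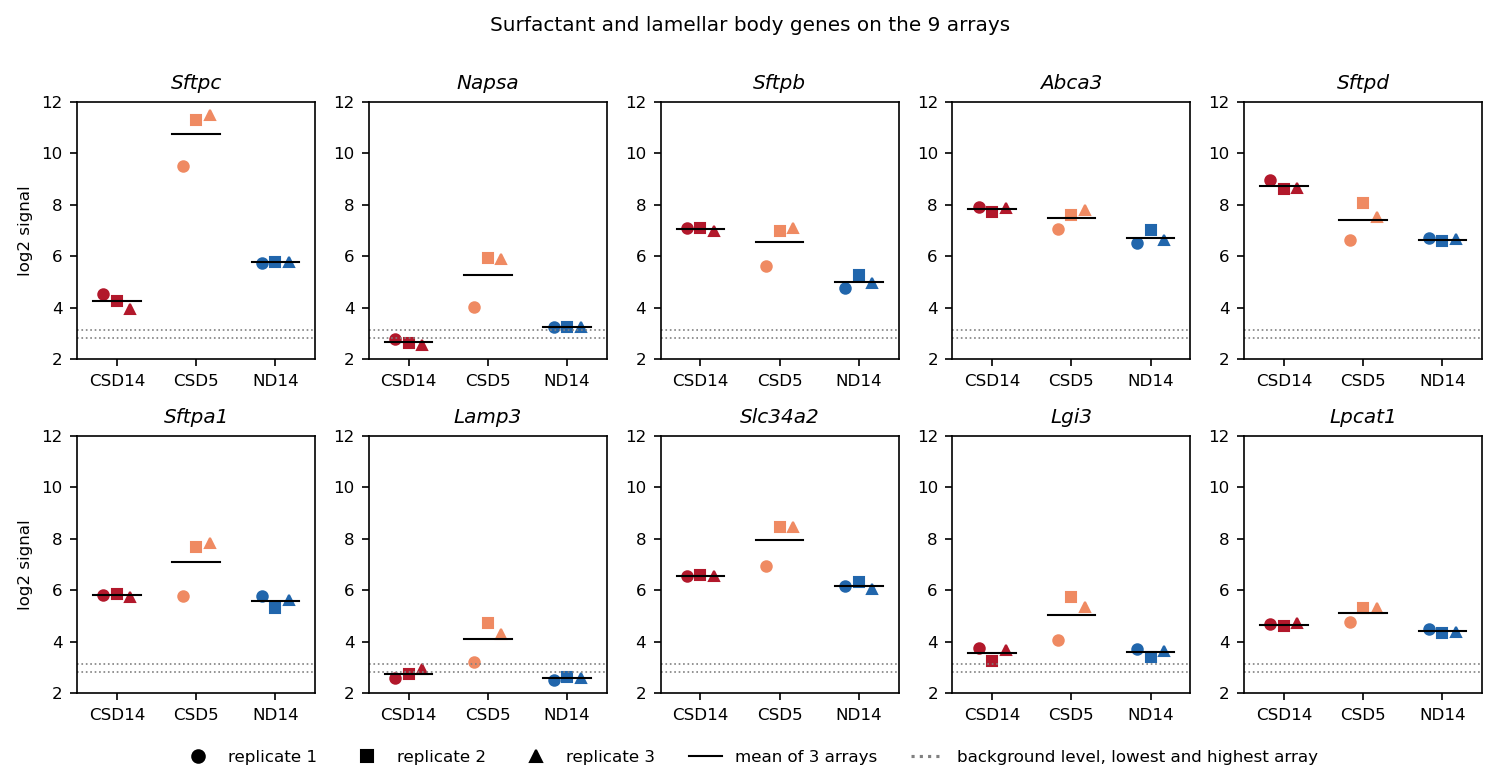
Log2 signal of each gene (vertical axes, the same range in all panels) on the 3 CSD14, 3 CSD5 and 3 ND14 arrays (horizontal axes), with the marker shape giving the replicate number, a black bar the mean of 3 arrays and dotted lines the lowest and highest background level of the 9 arrays. Sftpc and Napsa have ND14 above CSD14, Sftpb, Abca3 and Sftpd have CSD14 above ND14, and CSD5 replicate 1 lies under the other CSD5 arrays in all 10 panels.

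Sftpb, the hydrophobic protein required for lamellar body formation and film spreading, had a different order. It read 7.08, 7.09 and 6.96 in CSD14 (cluster 17459601), 5.62, 6.96 and 7.09 in CSD5 and 4.78, 5.25 and 4.95 in ND14. CSD14 overlapped CSD5 replicates 2 and 3, and both CS groups lay wholly above ND14. Abca3, the transporter that loads phospholipid into the lamellar body, read 7.90, 7.73 and 7.86 in CSD14 (cluster 17334205), 7.06, 7.60 and 7.78 in CSD5 and 6.52, 7.0 and 6.64 in ND14. It shared the order of Sftpb, with CSD14 and CSD5 overlapping and both above ND14.

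Sftpd, a collectin that binds microbial sugars, read 8.96, 8.59 and 8.63 in CSD14 (cluster 17305243), 6.62, 8.06 and 7.51 in CSD5 and 6.71, 6.57 and 6.66 in ND14. CSD14 lay above every other array, and CSD5 overlapped ND14 through CSD5 replicate 1. The other collectin gene, Sftpa1, read 5.83, 5.85 and 5.73 in CSD14 (cluster 17298968), 5.78, 7.67 and 7.83 in CSD5 and 5.78, 5.32 and 5.62 in ND14. CSD14 and ND14 overlapped for Sftpa1, and CSD5 exceeded both on replicates 2 and 3 only. The 2 collectin genes thus had their highest group means in different groups, 8.73 ± 0.20 in CSD14 for Sftpd and 7.09 ± 1.14 in CSD5 for Sftpa1 (SD, n = 3 each).

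Lamp3 encodes a glycoprotein of the lamellar body membrane and also marks mature dendritic cells. It read 2.59, 2.76 and 2.94 in CSD14 (cluster 17329046), 3.22, 4.75 and 4.32 in CSD5 and 2.52, 2.63 and 2.60 in ND14. Only the 3 CSD5 arrays were above background, and CSD14 and ND14 overlapped there. Slc34a2, the sodium phosphate cotransporter of the AT2 apical membrane, read 6.54, 6.59 and 6.55 in CSD14 (cluster 17437459), 6.96, 8.46 and 8.47 in CSD5 and 6.17, 6.32 and 6.05 in ND14. The 3 groups did not overlap, with CSD14 in the middle.

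Lgi3, a secreted leucine-rich repeat protein gene used as an AT2 marker in mouse, read 3.77, 3.24 and 3.70 in CSD14 (cluster 17301746), 4.09, 5.73 and 5.34 in CSD5 and 3.72, 3.40 and 3.65 in ND14. CSD14 and ND14 overlapped, and CSD5 lay above both on every array. Lpcat1, the acyltransferase that forms the disaturated phosphatidylcholine of surfactant, read 4.68, 4.60 and 4.74 in CSD14 (cluster 17288467), 4.78, 5.30 and 5.32 in CSD5 and 4.51, 4.33 and 4.4 in ND14. It showed the narrowest range of the 10 between its highest and lowest array, and its groups did not overlap.

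CSD14 against ND14 compares smoke exposure at one culture day. Sftpb, Sftpd and Abca3 rose in CSD14, and none of the other 7 passed the test. Sftpd was higher by 2.08 (SE 0.30, 4.23-fold, adjusted p = 0.00278), Sftpb by 2.05 (SE 0.33, 4.14-fold, adjusted p = 0.00458) and Abca3 by 1.11 (SE 0.19, 2.16-fold, adjusted p = 0.00654). The 3 calls were kept on leaving out any of the 9 arrays. Sftpc pointed the other way at -1.52 (SE 0.43, adjusted p = 0.0597) and so did Napsa at -0.58 (SE 0.42, adjusted p = 0.557). All 3 CSD14 values of Napsa were at background. With the CSD14 arrays set at their background level, its mean signal in ND14 was 1.18-fold that in CSD14. That figure carries no error, and the 95% interval of the log2 fold change of Napsa (-1.52 to 0.36) held 0. Slc34a2 (0.38), Lpcat1 (0.26), Sftpa1 (0.23), Lamp3 (0.18, both groups at background) and Lgi3 (-0.02) had 95% intervals that held 0.

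Thus 3 of 10 rose and 0 fell in CSD14 against ND14 by limma, where 5.48% of all clusters rose and 3.66% fell. Without adjustment, 3 were higher and 1, Sftpc, was lower at p under 0.05. By the rule in the study's methods, p below 0.05 without adjustment and more than a 2-fold change, the same 3 were higher and Sftpc lower, where 2.31% of all clusters were higher and 2.44% lower. The SE of these folds comes in part from the spread of CSD5 replicate 1, which enters the shared variance but not the fold. Without that array 4 rose and 2 fell, where 6.47% of all clusters rose and 5.4% fell. The falls were Sftpc (adjusted p = 0.000125) and Napsa (adjusted p = 0.00486), and the additional rise was Slc34a2 (adjusted p = 0.0451). The fall of Sftpc also passed without CSD5 replicate 3 (adjusted p = 0.0439). It did not pass without CSD5 replicate 2 (adjusted p = 0.0659). Nor did it pass on leaving out any CSD14 or ND14 array (limma adjusted p from 0.11 to 0.195).

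CSD14 against CSD5 compares the later with the earlier harvest of CS organoids. Sftpc fell by 6.51 (SE 0.43, 90.9-fold, adjusted p = 0.000356), the 2nd lowest log2 fold change of 34472 clusters. Napsa fell by 2.61 (SE 0.42, adjusted p = 0.0151), and with the CSD14 arrays set at their background level its signal in CSD5 was at least 4.84-fold higher. Both were lower on every CSD14 array than on any CSD5 array. The call of Napsa was lost on leaving out CSD14 replicate 1, 2 or 3 (adjusted p = 0.0661, 0.0574 and 0.0677) or CSD5 replicate 3 (adjusted p = 0.0546), while that of Sftpc was kept in each case.

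Of the remaining 8, 5 had values between -1.48 and -0.46 and 3 were positive, none past the threshold. Lgi3 was at -1.48 (adjusted p = 0.0643), Slc34a2 at -1.40 (adjusted p = 0.0672), Lamp3 at -1.33 (adjusted p = 0.0623), Sftpa1 at -1.29 (adjusted p = 0.186) and Lpcat1 at -0.46 (adjusted p = 0.166). Sftpd was at 1.33 (SE 0.30, adjusted p = 0.0505), Sftpb at 0.49 (adjusted p = 0.513) and Abca3 at 0.35 (adjusted p = 0.417). The 2 falls and 0 rises by limma stand beside 0.496% of all clusters that fell and 1.91% that rose, and at an unadjusted p under 0.05 the counts were 7 lower and 1 higher. By the methods' rule 6 were lower and 1, Sftpd, higher, where 0.833% of all clusters were lower and 0.957% higher.

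Leaving out CSD5 replicate 1 raised the CSD5 means and narrowed the spread of CSD14 against CSD5. Then 7 fell and 1 rose, where 1.24% of all clusters fell and 2.87% rose. The falls were Sftpc (-7.14), Napsa (-3.25), Lgi3 (-1.97), Sftpa1 (-1.95), Slc34a2 (-1.91), Lamp3 (-1.77) and Lpcat1 (-0.64), and the rise was Sftpd (0.94, adjusted p = 0.0234). The rise of Sftpd passed without CSD5 replicate 2 as well (adjusted p = 0.017). On leaving out any other single array it did not pass (limma adjusted p from 0.0853 to 0.184). Sftpb (0.02, 95% interval -0.32 to 0.35) and Abca3 (0.14, 95% interval -0.21 to 0.49) passed in neither case. Lamp3 was at background in CSD14, and in CSD5 over all 3 arrays was at least 2.14-fold higher.

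**Figure D2:**
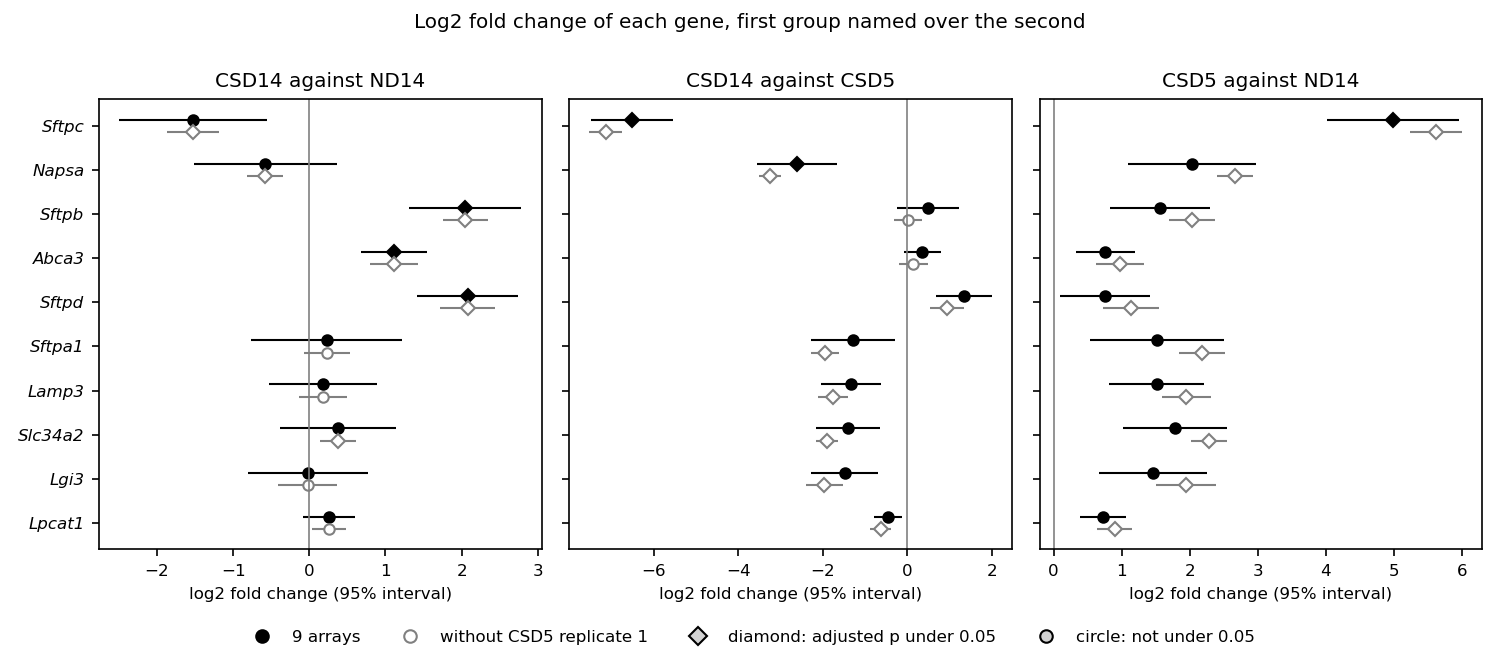
Log2 fold change of each gene with its 95% interval (horizontal axes) in the 3 comparisons, from the fit of all 9 arrays (black) and of 8 arrays without CSD5 replicate 1 (grey, open), with diamonds for an adjusted p under 0.05 and circles otherwise. Sftpc stands at -1.52, -6.51 and 4.98 with all arrays, and Sftpb, Abca3 and Sftpd are the 3 black diamonds right of 0 in CSD14 against ND14.

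CSD5 against ND14 mixes exposure, day and medium. All 10 genes had positive fold changes, and Sftpc alone passed, at 4.98 (SE 0.43, 31.6-fold, adjusted p = 0.0206), the highest log2 fold change on the arrays. It was also the 1 cluster of 34472 that rose, which is 0.0029% of them, and 0.0% fell. The call was kept without CSD5 replicate 1 (5.62, adjusted p = 2.87e-07) and lost on leaving out any 1 of the other 8 arrays (adjusted p from 0.0958 to 0.251), with the log2 fold change at 4.62 to 4.99. Napsa was at 2.03 (SE 0.42, adjusted p = 0.193), Slc34a2 at 1.78, Sftpb at 1.56, Sftpa1 at 1.52, Lamp3 at 1.51 and Lgi3 at 1.46. Abca3 (0.76), Sftpd (0.75) and Lpcat1 (0.72) were lowest. For Lamp3, with ND14 set at its background level, CSD5 was at least 2.08-fold higher.

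At an unadjusted p under 0.05 all 10 were higher in CSD5 than in ND14, with no share of all clusters counted for that rule. By the methods' rule 7 were higher, where 0.766% of all clusters were higher and 1.22% lower. Without CSD5 replicate 1, an array left out after its values were seen, all 10 rose, where 3.4% of all clusters rose and 6.27% fell. Their log2 fold changes then ran from 0.90 for Lpcat1 to 5.62 for Sftpc, with Napsa at 2.67 (adjusted p = 1.84e-06), Slc34a2 at 2.29 and Sftpb at 2.03. On CSD5 replicate 1 itself Sftpc was 3.72 above the ND14 mean, Slc34a2 0.78 and Napsa 0.77, and Sftpd was 0.03 below it.

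Over the 9 arrays the genes followed different patterns, given here as Pearson correlations with no test, since the points share 3 groups and 1 array stood apart. Sftpb went with Abca3 (r = 0.982) and with Sftpd (r = 0.882). Sftpc went with Napsa (r = 0.969), and Lamp3 with Slc34a2 (r = 0.980) and Lgi3 (r = 0.965). These 2 sets were not apart from each other. Napsa also went with Lgi3 (r = 0.957), Lamp3 (r = 0.937), Slc34a2 (r = 0.926) and Sftpa1 (r = 0.917). Sftpc went with Lgi3 (r = 0.90), Lamp3 (r = 0.884), Slc34a2 (r = 0.871) and Sftpa1 (r = 0.823). Sftpc was near 0 with Abca3 (r = 0.05) and Sftpb (r = 0.136) and below 0 with Sftpd (r = -0.277). Napsa in CSD14 and Lamp3 outside CSD5 were at background, which limits what their correlations show.

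Among 12870 genes whose mean was above background, the 5 with the pattern most like Sftpc over the 9 arrays were Napsa (r = 0.969), Pla2g7 (r = 0.967), Ces2e (r = 0.963), Ranbp3l (r = 0.960) and Ccl6 (r = 0.958). Those most like Napsa were Ccl6 (r = 0.992), Mmp12 (r = 0.991), Ranbp3l (r = 0.985), Pla2g7 (r = 0.982) and Clec7a (r = 0.981). The filter used the mean of all 9 arrays, so a gene at background outside CSD5 could enter through its CSD5 signal. Ranbp3l read 1.89 to 2.25 in CSD14 and 2.07 to 2.39 in ND14, under background. Clec7a read 2.10 to 2.31 and 1.93 to 2.81 there, also under background. The correlations of Ranbp3l and Clec7a therefore rest on the CSD5 arrays. Pla2g7 read 2.65 to 2.75 in CSD14, under background, and 2.96 on each ND14 array, at about background, so the same limit holds for it. In CSD14 Mmp12 was under background as well. Mmp12 encodes macrophage elastase, Ccl6 a chemokine of myeloid cells and Clec7a the receptor dectin-1 of myeloid cells. Mmp12 read 2.93, 2.32 and 2.41 in CSD14, 4.08, 8.47 and 8.51 in CSD5 and 3.24, 3.20 and 3.24 in ND14. The mean of the other 8 genes had other neighbours, led by the lysosomal protease gene Ctsb (r = 0.990) and by Nt5e, Pomt2, Ttyh3 and Slc12a2 (r = 0.979 to 0.982).

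**Figure D3:**
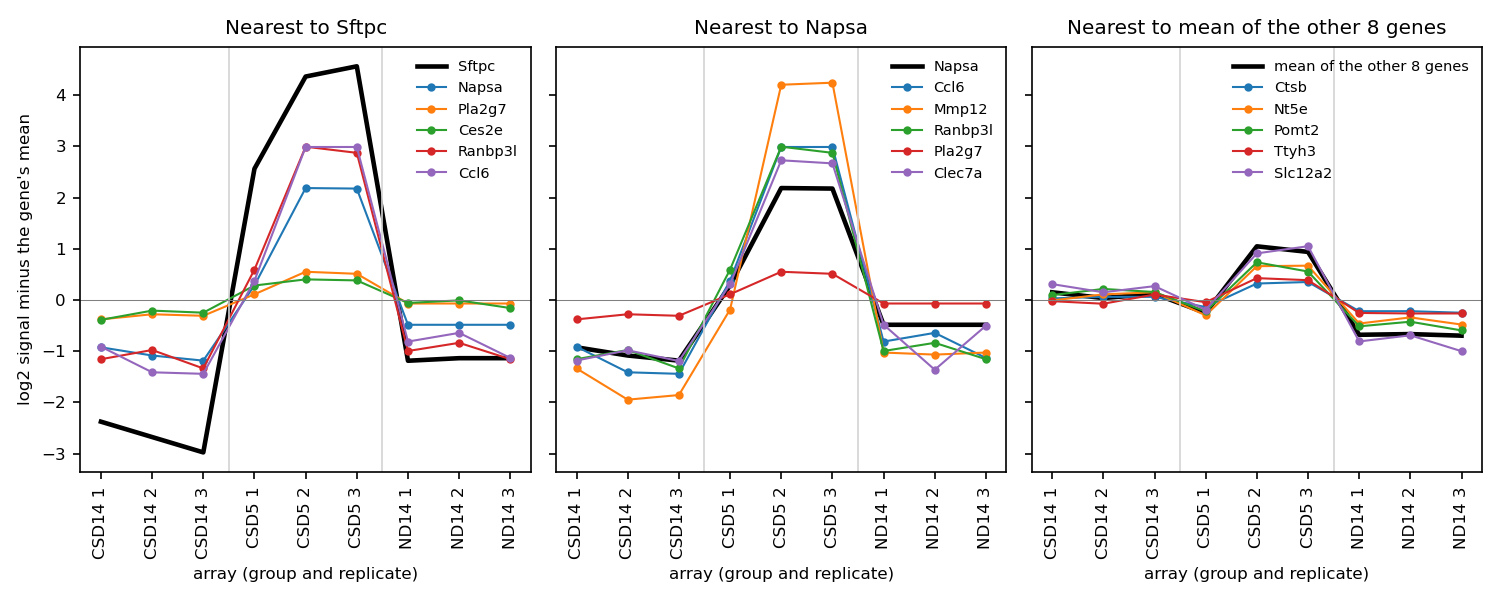
Log2 signal minus the gene's mean (vertical axes) on the 9 arrays (horizontal axes) for Sftpc, Napsa and the mean of the other 8 genes (black) and for the 5 genes most correlated with each (colours), with lines that only join the points of a gene. CSD5 replicates 2 and 3 are the highest arrays for Sftpc, Napsa and all of their neighbours, and ND14 is lowest for the mean of the other 8.

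Macrophage and muscle markers were read beside the CSD5 values of these genes. Of 14 measured macrophage markers 0 rose and 1 fell in CSD14 against CSD5 by limma, and 0 were higher and 6 lower at an unadjusted p under 0.05. In CSD5 against ND14 none passed, with 6 higher and 1 lower unadjusted. In the fit of 8 arrays without CSD5 replicate 1, 1 rose and 5 fell in CSD14 against CSD5, and 7 rose and 1 fell in CSD5 against ND14. In CSD14 against ND14 2 rose and 0 fell. The macrophage receptor gene Csf1r fell by 1.29 in CSD14 against CSD5 (limma adjusted p = 0.0208). It read 3.08, 2.86 and 3.13 in CSD14, 3.75, 4.71 and 4.49 in CSD5 and 3.24, 3.59 and 3.34 in ND14. Cd14 pointed the other way in CSD14 against CSD5, at 0.51 (adjusted p = 0.428). In CSD14 against ND14 Cd14 rose by 1.67 (adjusted p = 0.00609). By sign alone, 5 of the 14 were higher and 9 lower in CSD14 than in CSD5. The list mean was 3.96 to 4.04 in CSD14, 3.99 to 4.41 in CSD5 and 3.87 to 3.98 in ND14. The alveolar macrophage markers Marco and Siglecf were above background on 0 of 9 arrays, Chil3 on 1 and Mrc1 on 2. The mean of 10 striated muscle markers was 2.95 to 3.25 in CSD14, 3.28 to 4.80 in CSD5 and 3.33 to 3.38 in ND14, with Acta1, skeletal actin, at 5.80, 9.08 and 8.72 in CSD5. With all 9 arrays none of the 10 passed in any comparison, and 8 were lower in CSD14 than in CSD5 at an unadjusted p under 0.05. Leaving out CSD5 replicate 1, 7 of the 10 fell in CSD14 against CSD5 and 6 rose in CSD5 against ND14. The part of macrophage and muscle RNA in the CSD5 values was not tested.

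Markers of several epithelial lineages moved beside Sftpb, Sftpd and Abca3 in CSD14. Of 12 airway secretory markers, 8 rose and 1 fell in CSD14 against ND14, and their mean was 9.98 to 10.0 in CSD14, 9.39 to 9.82 in CSD5 and 9.24 to 9.29 in ND14. Of 9 ciliated cell markers 7 rose and 0 fell in CSD14 against ND14, with Tmem212 at 2.58 (adjusted p = 0.000365), and 7 rose and 0 fell in CSD14 against CSD5. Their mean was 5.48 to 5.66 in CSD14, 3.58 to 4.27 in CSD5 and 4.25 to 4.39 in ND14. Of 8 general epithelial markers 6 rose and 0 fell in CSD14 against ND14, of 9 basal cell markers 2 rose and 5 fell, and of 18 AT1 markers 4 rose and 5 fell. Of 16 markers of squamous epithelium 0 rose and 14 fell by limma in CSD14 against ND14, and the same at an unadjusted p under 0.05, with a list mean of 3.96 to 4.04 in CSD14, 5.73 to 8.47 in CSD5 and 8.40 to 8.58 in ND14. CSD5 replicate 1 held the 8.47. None of 11 fibroblast or 8 endothelial markers passed in CSD14 against ND14, with 1 fibroblast marker higher and 1 endothelial marker lower at an unadjusted p under 0.05. The part of these lineages in the rises of Sftpb, Sftpd and Abca3 was not tested.

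Genes that process surfactant proteins or build and release lamellar bodies moved in both directions. Of 22 measured genes of this list, 5 rose and 3 fell in CSD14 against ND14, with a median of 0.26 beside 0.00 over all clusters. Rab27a, a small GTPase of secretory granules, rose by 1.63 (adjusted p = 0.00396) and Ctsh, the cathepsin H that cuts the Sftpb and Sftpc precursors, by 0.76 (adjusted p = 0.00554). Rab38, a GTPase of lamellar body biogenesis, fell by 0.73 (adjusted p = 0.0118) and P2ry2, the ATP receptor that triggers surfactant secretion, by 0.69 (adjusted p = 0.0145). Ctsh read 9.0, 9.03 and 8.95 in CSD14, 8.27, 8.70 and 8.63 in CSD5 and 8.14, 8.27 and 8.28 in ND14. Its group mean was highest in CSD14, unlike that of the other protease gene, Napsa, which was highest in CSD5. None of the 22 passed in CSD14 against CSD5 (9 higher and 1 lower at an unadjusted p under 0.05) or in CSD5 against ND14 (4 higher and 3 lower) with all 9 arrays. Without CSD5 replicate 1, 5 rose and 2 fell in CSD5 against ND14, and again none passed in CSD14 against CSD5.

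Of 25 measured genes of surfactant phospholipid synthesis, 12 fell and 1 rose in CSD14 against ND14, and 12 did not pass, with a median of -0.57. Fabp5, a fatty acid binding protein gene, fell by 1.88 (adjusted p = 0.00101), Elovl6, an elongase of saturated fatty acids, by 1.60 (adjusted p = 0.00315), Acaca, acetyl-CoA carboxylase, by 1.13 (adjusted p = 0.00236) and Fasn, fatty acid synthase, by 0.57 (adjusted p = 0.0059). These enzymes serve all fatty acid synthesis and not surfactant alone. Fabp5 (-1.27, adjusted p = 0.0156) and Fasn (-0.71, adjusted p = 0.00762) were the 2 that fell in CSD14 against CSD5, and 0 rose by limma and at an unadjusted p under 0.05. In CSD5 against ND14 none passed by limma, with 2 higher and 15 lower at an unadjusted p under 0.05. Without CSD5 replicate 1, 2 rose and 12 fell in CSD5 against ND14, and 1 rose and 4 fell in CSD14 against CSD5.

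Transcription factors of surfactant promoters and AT2 cells were divided. Of 24 measured, 6 rose and 4 fell in CSD14 against ND14, with a median of 0.05. Nkx2-1, the lung lineage factor known to bind surfactant promoters, rose by 0.91 (adjusted p = 0.00212), and read 5.05, 5.23 and 4.87 in CSD14, 4.61, 4.74 and 4.63 in CSD5 and 4.02, 4.22 and 4.17 in ND14. Its 3 groups did not overlap. The order of its group means was that of Sftpb, but for Sftpb CSD14 and CSD5 overlapped. Without CSD5 replicate 1 those 2 groups differed by 0.02 for Sftpb (limma adjusted p = 0.954). Foxa1 rose by 1.20 (adjusted p = 0.00671) and Elf3, an epithelial ETS factor, by 2.01 (adjusted p = 0.00246), while Hopx, a homeodomain gene of type 1 cells, fell by 1.36 (adjusted p = 0.0029). None of the 24 passed in CSD14 against CSD5 (3 higher and 1 lower at an unadjusted p under 0.05) or in CSD5 against ND14 (9 higher and 7 lower) with all 9 arrays. With CSD5 replicate 1 left out, 8 rose and 5 fell in CSD5 against ND14, and again none passed in CSD14 against CSD5.

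Other AT2 markers were divided as well, with 7 of 24 rising and 2 falling in CSD14 against ND14 and a median of 0.07. The mucin gene Muc1 rose by 3.08 (adjusted p = 0.000724) and Wfdc2 by 1.92 (adjusted p = 0.00256), and airway cells express both. In CSD14 against CSD5 only Fabp5 fell and 0 rose by limma, with 4 higher and 6 lower at an unadjusted p under 0.05. In CSD5 against ND14 none passed by limma, with 10 higher and 3 lower at an unadjusted p under 0.05. When CSD5 replicate 1 was left out, 4 fell and 0 rose in CSD14 against CSD5, and 8 rose and 2 fell in CSD5 against ND14. Etv5, Cebpa, Nkx2-1, Ctsh and Fabp5 stand in this list and in another.

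**Figure D4:**
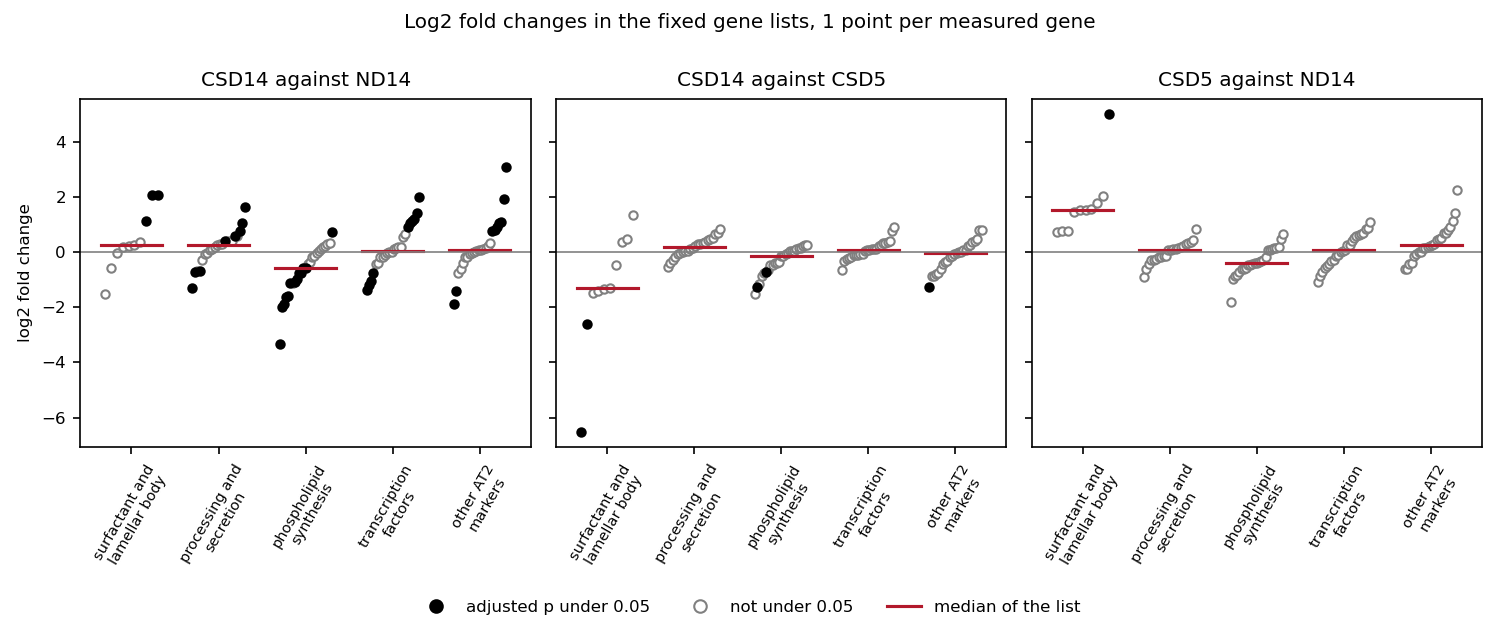
Log2 fold change (vertical axes) of each measured gene in the 10 surfactant and lamellar body genes and in 4 other lists (horizontal axes), with filled points for an adjusted p under 0.05 and a red bar for the median. The 10 genes have medians of 0.25, -1.31 and 1.52 in the 3 comparisons, and the phospholipid synthesis list has -0.57 in CSD14 against ND14.

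The genes beside Sftpc and Napsa on their chromosomes were read to see how far the changes extended. The measured neighbours of Sftpc are Bmp1, Polr3d and Piwil2 on one side and Lgi3, Reep4 and Hr on the other. With all 9 arrays Hr alone of these passed, at -0.84 in CSD14 against ND14 (adjusted p = 0.0431), and its CSD5 mean of 4.29 lay between 3.89 in CSD14 and 4.73 in ND14. Lgi3, next to Sftpc and itself an AT2 marker, was the 1 neighbour with CSD5 above both other groups on every array. Without CSD5 replicate 1, Lgi3 passed in both comparisons with CSD5, as given above, while Reep4 fell in CSD14 against ND14 (-0.74, adjusted p = 0.00564). In CSD5 against ND14 without that array Reep4 (-0.64, adjusted p = 0.0284) and Hr (-0.70, adjusted p = 0.0211) fell, the direction opposite to that of Sftpc. Napsa stands between Pold1, Spib and Mybpc2 and Myh14, Izumo2 and Zfp473. Pold1, a DNA polymerase subunit gene, rose by 0.53 in CSD14 against ND14 (adjusted p = 0.0158), and none of the 6 had its highest 3 arrays in CSD5. Mybpc2, Spib, Izumo2 and Zfp473, and Piwil2 beside Sftpc, were above background on 0 of 9 arrays. Those neighbours cannot show whether a change extended to them. Without CSD5 replicate 1, Myh14 fell in CSD14 against ND14 as well (-0.56, adjusted p = 0.0492).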

How the data were processed

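RNA of 9 lung organoid samples, 3 each of CSD14, CSD5 and ND14, was hybridised from 10 ng to Mouse Gene 2.0 ST arrays. The authors processed the arrays in Transcriptome Analysis Console 4.0.3, with algorithm and genome build not given in the sources used here, and deposited log2 signals per transcript cluster, which were used unscaled and unfiltered. Groups came from the sample titles. The titles call the replicates biological, and the sources used here do not say whether each came from its own animal or culture, so the tests reflect only how these samples vary, and the number of arrays limits the precision.

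A gene with several clusters was read from the one with the highest mean. The model (limma 3.58.1, R 4.3.3, empirical Bayes moderation) was run on simulated data with equal spread in all groups and no outlying array. Those data lack an array like CSD5 replicate 1, so that run says nothing of its effect here. An exact test of 3 arrays against 3 cannot give a p under 0.1. Where all arrays of a group were at or under background, a bound was taken against the mean of those background levels. Such a bound compares group means and carries no error.

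The 10 genes and 14 other lists (10 entries unmatched) were chosen with earlier results of these data known. Named genes were the 10, up to 4 per list with the smallest p over the comparisons, 3 neighbours on either side of Sftpc and Napsa in RefSeq, and the 5 most correlated genes. Marco, Siglecf, Chil3, Sfta2, Hc, Acoxl, Mlc1 and Epcam were singled out after their values were seen. Alternatives were a fit of the 6 arrays compared, no moderation, limma-trend, median centring, quantile normalization, a filter at the 40th percentile, array weights, a block on the replicate number, each array left out, averaging the clusters of a gene, and the methods' rule. Organoids given other treatments and lung tissue are not analysed here.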

Additional observations from a re-analysis of the deposited data

How the results depend on the processing

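The count of the 10 genes called in CSD14 against ND14 was 3, and 5 when only the 6 arrays compared were fitted and 1 with no moderation. In CSD14 against CSD5 it was 2, and 7 by the methods' rule, 1 with 6 arrays, 1 with no moderation, 6 with the filter at the 40th percentile, 7 with array weights and 5 with the clusters of a gene averaged. In CSD5 against ND14 it was 1, and 7 by the methods' rule, 0 with 6 arrays, 0 with no moderation and 10 with array weights. Leaving out each array in turn gave 3 to 6 in CSD14 against ND14, 1 to 8 in CSD14 against CSD5 and 0 to 10 in CSD5 against ND14, and each upper end came without CSD5 replicate 1. Median centring, quantile normalization and limma-trend left these counts within 1.5 times. The cause of these shifts was not tested beyond the arrays left out. Shares of all clusters were counted only for the main fit, the methods' rule and the fit without CSD5 replicate 1. Counts under the other settings therefore cannot be set against all clusters and are descriptive.

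Over 540 settings of single genes, 471 kept direction and side of the threshold, 47 gained it, 19 lost it and 3 turned round. The 3 were Lgi3 in CSD14 against ND14, at -0.02 with all arrays and at -0.12 to 0.15 on leaving out each array. Over all clusters, arrays of the same replicate number did not deviate together (r = -0.133 to 0.0647 over 9 pairs). These are deviations from means of 3 arrays, with many clusters near background. They cannot exclude that samples of the same number share an animal or culture. With the replicate number as a block the counts were 3, 2 and 0, and the call lost was Sftpc in CSD5 against ND14 (adjusted p = 0.0616).

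CSD5 rests on arrays that differ more from each other than those of CSD14 or ND14. Values near the background of 2.83 to 3.15, those of Napsa in CSD14 and Lamp3 outside CSD5, give bounds only.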
